A study of Mus musculus with 2 samples.

Results

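The genes described here are 10 nuclear genes whose products copy, transcribe, stabilise or degrade the nucleic acids of mitochondria: Tfam, Polrmt, Tfb2m, Tfb1m, Lrpprc, Slirp, Pnpt1, Supv3l1, Polg and Ssbp1. They were picked by gene symbol, for their known roles, from the 54680 loci of the expression table, and all 10 were found. Earlier results of these data were known when they were picked, so the shares beside all genes below are descriptions. RNA sequencing had been done on CT26 cells, a mouse colon cancer line, with 1 library in each of 2 groups. Cells of the shSetdb1 group had been infected with lentivirus carrying a short hairpin RNA against Setdb1, a histone H3 lysine methyltransferase, and cells of the shCtrl group with lentivirus carrying the empty vector. The genotype of the control cells is labelled wild type, and the hairpin sequence is not given in the sources used here. Both groups had been grown for 6 days, and the labels call the knockdown cells differentiated. Differences below are between these 2 libraries and have no replicate check.

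Mitochondria keep a small circular genome that is transcribed from both strands into long RNAs, which are then cut into messenger, ribosomal and transfer RNAs. Every protein needed for this is encoded in the nucleus and imported. Transcript levels depend on initiation by the polymerase POLRMT with TFAM and TFB2M, on protection of the messenger RNAs by the LRPPRC and SLIRP complex, and on decay by the PNPT1 ribonuclease with the SUPV3L1 helicase. Pnpt1 is also known as an interferon-inducible gene, and double-stranded mitochondrial RNA that escapes decay can be sensed in the cytosol by MDA5, the product of Ifih1.

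The libraries held 18421604 reads (control) and 19045830 reads (knockdown). Setdb1 was at 10.4 FPKM in shCtrl and 2.47 FPKM in shSetdb1, 23.7% of control, which checks the labels. FPKM counts fragments scaled by gene length and sequencing depth. Epcam and Cdh1, defining markers of epithelium, had 0 reads in both libraries. The 8 epithelial markers summed to 43.2 FPKM in shCtrl and 127.9 FPKM in shSetdb1, of which Krt18 made up most (37.8 and 90.0 FPKM), followed by Krt20 (5.07 and 35.6 FPKM). The 4 mesenchymal markers, Vim, Fn1, Sparc and Col1a1, summed to 1230 and 1471 FPKM, with Col1a1 lower in shSetdb1 and the others higher. The 5 leukocyte markers had 0 reads in shCtrl and 4 in shSetdb1, and the 3 endothelial markers had 0 in both. The part of these marker differences in the results below was not tested.

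Of the 10 genes, Lrpprc, Tfb1m and Tfb2m were clearly lower in the knockdown library, at 37.3%, 40.2% and 43.0% of their control FPKM. Polrmt and Supv3l1 were lower by less, at 85.3% and 80.4%. Tfam, Polg and Ssbp1 were closer to control, at 95.8%, 94.2% and 93.9%, and Pnpt1 was at 119%. Slirp had too few reads to be placed. In RNA from a whole culture, fewer cells that express a gene and less RNA per cell cannot be told apart. The genes with the large differences therefore came from separate steps: messenger RNA protection, ribosomal RNA methylation and promoter opening.

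**Figure D1:**
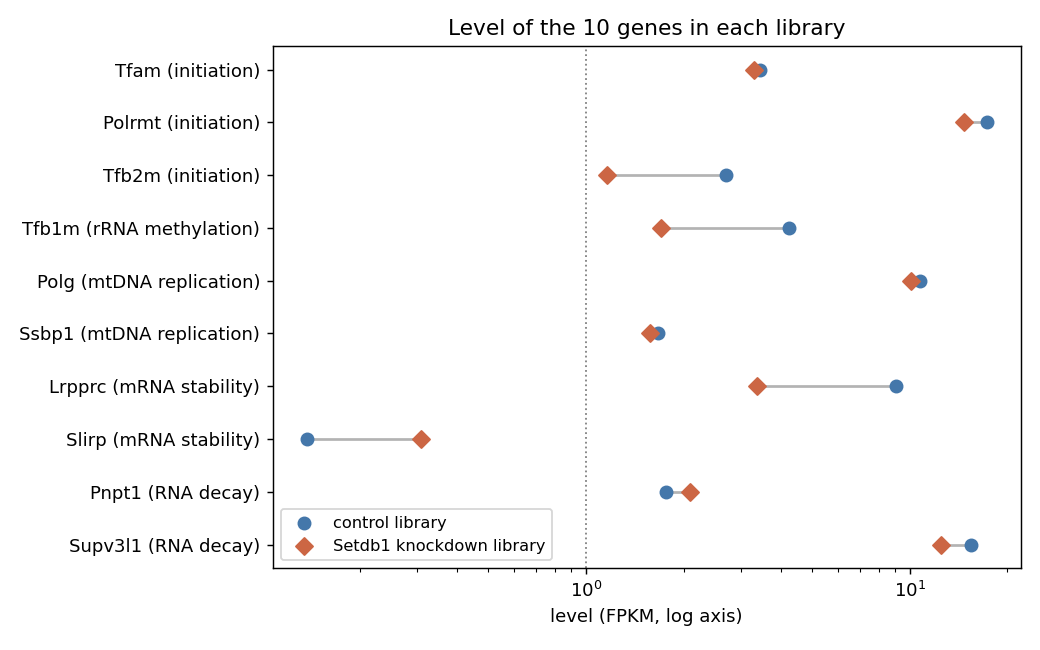
Level of each gene in FPKM (log axis) in the control library (circles) and the Setdb1 knockdown library (diamonds), with 1 library per group and the role of each product in brackets. The long connecting lines are those of Tfb2m, Tfb1m, Lrpprc and Slirp, and Slirp lies below the dotted line at 1 FPKM in both libraries.

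On the log2 scale of (FPKM + 1), which understates differences of genes at low levels, 9 genes were at 1 FPKM or more, each of them in both libraries. Their log2 ratios, knockdown over control, had a median of -0.22, against -0.00039 over all 10671 genes that reached 1 FPKM in either library. Of the 9 genes, 8 were below 0, as were 50% of all genes. At 1.5-fold, 3 of the 9 were lower, beside 14.3% of all genes, and 0 were higher, beside 16.9% of all genes. At 2-fold, 1 of the 9, Lrpprc, was lower, beside 4.85% of all genes. Taken from the reads themselves, each over its library's total, Lrpprc, Tfb1m and Tfb2m were all at least 2-fold lower, beside 9.6% of all genes. A two-sided exact binomial test on the reads, adjusted by Benjamini-Hochberg over the 10671 genes, speaks of these libraries and not of the conditions. It called 6 of the 9 genes lower at an adjusted p under 0.05, beside 40% of all genes called lower, so such a call is common in this pair of libraries.

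**Figure D2:**
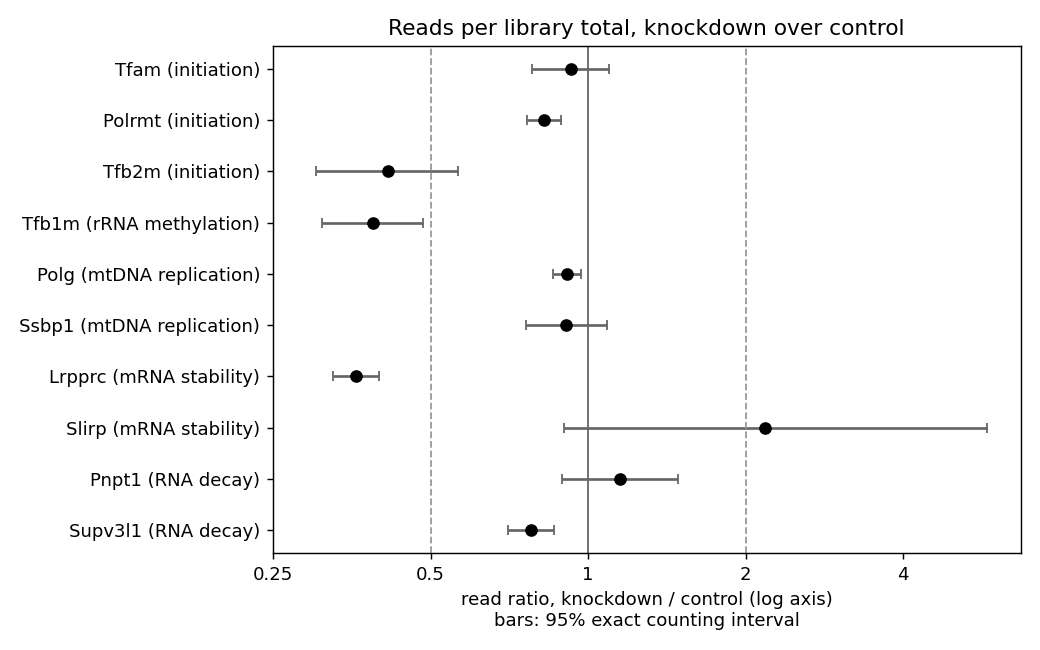
Ratio of reads, knockdown over control, each relative to its library's total (log axis), with 95% exact counting intervals that cover counting error only; dashed lines mark 2-fold. The intervals of Tfb1m and Lrpprc end below 0.5, that of Tfb2m crosses it, and those of Tfam, Ssbp1, Slirp and Pnpt1 include 1.

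The promoters of the genes are shown because factors known to drive mitochondrial genes bind short motifs near start sites. All 10 genes had an entry in the RefSeq promoter table for GRCm38.p6, which holds the 250 bases before and 50 bases after each start. The sequences below are written 5′ to 3′ on the gene's own strand. Those of Lrpprc, Tfb1m, Tfb2m, Pnpt1 and Polrmt are the 100 bases before the RefSeq start, and those of Tfam, Polg and Ssbp1 are 29 bases around a motif. Capitals mark CCGGAAG on either strand, a motif bound by ETS factors such as GABPA, and in Pnpt1 a run named further down.
Lrpprc: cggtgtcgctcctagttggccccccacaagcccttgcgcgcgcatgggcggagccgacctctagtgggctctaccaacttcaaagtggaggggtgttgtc
Tfb1m: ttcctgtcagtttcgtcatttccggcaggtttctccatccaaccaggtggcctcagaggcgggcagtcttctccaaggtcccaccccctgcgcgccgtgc
Tfb2m: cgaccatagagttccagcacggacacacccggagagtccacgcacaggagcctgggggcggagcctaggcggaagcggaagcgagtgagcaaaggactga
Pnpt1: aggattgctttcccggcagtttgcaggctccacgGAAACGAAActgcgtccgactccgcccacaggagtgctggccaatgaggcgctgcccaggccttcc
Polrmt: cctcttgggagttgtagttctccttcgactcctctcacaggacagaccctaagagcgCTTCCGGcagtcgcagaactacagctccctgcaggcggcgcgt
Tfam: tcctgccgcggaCCGGAAGtccgggcttc
Polg: ggaggacctcacCCGGAAGtccctctgca
Ssbp1: gggctccgtgcgCCGGAAGcgagccgctg

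These windows lie at chr17:84790787-84790886 (minus strand) for Lrpprc, chr17:3557756-3557855 (minus) for Tfb1m and chr1:179546277-179546376 (minus) for Tfb2m. The others are at chr11:29130644-29130743 (plus) for Pnpt1, chr10:79746582-79746681 (minus) for Polrmt, chr10:71238075-71238103 (minus) for Tfam, chr7:79466295-79466323 (minus) for Polg and chr6:40471409-40471437 (plus) for Ssbp1. CCGGAAG, searched on both strands, was found in the promoters of 5 of the 10 genes, Tfam, Polrmt, Polg, Ssbp1 and Slirp, beside 8.86% of the 32851 promoters of the table. Counted from the RefSeq start, the motif began at position -47 in Tfam and Ssbp1, -43 in Polrmt and -38 in Polg. By the gene coordinates given further down, the windows of Tfam, Polg and Ssbp1 lie inside the gene. Those of Tfb1m and Lrpprc overlap the first bases of the gene. CCGGAAG was not found in Lrpprc, Tfb1m, Tfb2m, Pnpt1 or Supv3l1. Only these exact letters were searched. Near matches were not counted, such as GCGGAAG in the printed Tfb2m sequence and TTTCCGG in that of Tfb1m. The other motifs searched were rarer among the genes, again on both strands. The NRF1 core was found in Polrmt only (4.6% of all promoters), in 2 overlapping matches that begin at positions -6 and 1, and GCCATNTT, bound by YY1, in Slirp only (6.05%). The core of the interferon-stimulated response element, GAAA repeated after a gap of 2 bases, was found in 0 of the 10 genes (3.44%). After the Pnpt1 sequence had been seen, GAAA repeated after a gap of 1 base was also searched. It stands at position -66 of Pnpt1, where it is in capitals, in 0 of the other 9 genes and in 3.17% of all promoters. A match is a description of the letters and not evidence of binding.

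Initiation was examined first. POLRMT is the RNA polymerase of mitochondria, TFAM is the DNA-bending protein that packages the genome and marks the promoters, and TFB2M opens the promoter for the polymerase. Polrmt (ENSMUSG00000020329, chromosome 10, 79736123 to 79746581, minus strand, GRCm38) had 1512 reads (17.2 FPKM) in shCtrl and 1290 (14.7 FPKM) in shSetdb1. Its log2 ratio was -0.22 and its read ratio 0.825, with a 95% counting interval of 0.766 to 0.889. Tfam (ENSMUSG00000003923, chromosome 10, 71225464 to 71238280, minus strand) had 286 reads (3.44 FPKM) against 274 (3.30 FPKM). The read ratio of Tfam, 0.927 (0.782 to 1.10), did not differ from 1 beyond counting error.

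Tfb2m (ENSMUSG00000026492, chromosome 1, 179528055 to 179546267, minus strand) stood apart from its partners, with 142 reads (2.70 FPKM) in shCtrl and 61 (1.16 FPKM) in shSetdb1. The log2 ratio of Tfb2m was -0.78 and its read ratio 0.416 (0.303 to 0.565). Relative to Polrmt, the read ratio of Tfb2m was 0.504 (exact conditional interval 0.363 to 0.691), and relative to Tfam it was 0.449 (0.313 to 0.639). Such comparisons within the libraries do not depend on how the libraries are scaled, and 7 pairs of genes were compared in this way. Tfam relative to Polrmt was 1.12 (0.932 to 1.35), an interval that includes equal change. An unprocessed pseudogene on chromosome 12, Gm1818, carries the same protein match as Tfb2m and had 22 reads against 4, so it was lower as well and reads could be divided between the copies.

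Tfb1m encodes the paralog of TFB2M that methylates the small mitochondrial ribosomal RNA, a step needed to assemble mitochondrial ribosomes. The gene (ENSMUSG00000036983, chromosome 17, 3519256 to 3557781, minus strand) had 286 reads (4.23 FPKM) in shCtrl, the same number as Tfam, but 115 (1.70 FPKM) in shSetdb1. Its log2 ratio was -0.95 and its read ratio 0.389 (0.311 to 0.484). The paralogs were lower to a like extent: Tfb1m relative to Tfb2m was 0.936, with an interval of 0.637 to 1.38 that still allows a difference either way. Of the exonic bases of Tfb1m, 3.94% lie over Tiam2 on the opposite strand, which had 624 reads against 783 and so went the other way.

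Lrpprc and Slirp encode the partners of a complex that binds mitochondrial messenger RNAs, keeps them from decay and promotes their polyadenylation. Lrpprc (ENSMUSG00000024120, chromosome 17, 84705247 to 84790789, minus strand) had the lowest log2 ratio of the 10 genes, -1.20. Its reads went from 1441 (9.05 FPKM) in shCtrl to 537 (3.37 FPKM) in shSetdb1, a read ratio of 0.360 (0.326 to 0.398). Among 3467 genes whose mean FPKM lay within 2-fold of that of Lrpprc, its ratio was at percentile 2.60, while those of Tfb1m and Tfb2m were at percentiles 5.41 and 7.84 among genes of their own levels. Lrpprc relative to Tfb1m was 0.927 (0.727 to 1.19), so these read ratios did not differ beyond counting error. No other gene shares exonic bases with Lrpprc. Of 4 other loci with its protein match, 1700030C10Rik had 118 reads against 110 and the rest had 0.

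Slirp (ENSMUSG00000021040, chromosome 12, 87443896 to 87452206, plus strand) had 8 reads (0.138 FPKM) in shCtrl and 18 (0.310 FPKM) in shSetdb1. Its read ratio of 2.18 had a counting interval of 0.900 to 5.78, so no difference was detectable at this depth, and the gene is left out of the counts above. In the GENCODE M21 annotation, 97.8% of its 3104 exonic bases are also exonic in a gene on the opposite strand, 2914 of them in Snw1, which had 688 reads against 611. The strand setting of the counting is not given in the sources used here. Whether these libraries hold few Slirp transcripts or few reads that could be assigned to the gene was not tested.

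PNPT1 is an exoribonuclease and SUPV3L1 the helicase that unwinds RNA for it; together they form the mitochondrial degradosome. Supv3l1 (ENSMUSG00000020079, chromosome 10, 62429209 to 62449738, minus strand) had 860 reads (15.5 FPKM) in shCtrl and 691 (12.4 FPKM) in shSetdb1. On the log2 scale its ratio was -0.29, and the read ratio was 0.777 (0.702 to 0.860). Pnpt1 (ENSMUSG00000020464, chromosome 11, 29130744 to 29161828, plus strand) had 116 reads (1.76 FPKM) against 138 (2.10 FPKM). The log2 ratio of Pnpt1 was 0.16 and its read ratio 1.15, with an interval of 0.892 to 1.49 that includes 1. Pnpt1 relative to Supv3l1 was 1.48 (1.12 to 1.95), an interval above 1, with Supv3l1 lower and Pnpt1 not distinguishable from control.

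Pnpt1 was set beside 26 interferon-stimulated genes. Of these, 25 reached 1 FPKM, all 25 were above 0 and 22 were at least 2-fold higher, beside 6.81% of all genes, with a median log2 ratio of 2.20. Ifih1, Ifit1, Ifit3, Mx2, Zbp1, Rsad2 and Parp14 reached 1 FPKM in the knockdown library only, so the filter fixed the direction of these genes. Irf7, a transcription factor of the interferon response, was highest at 4.91, from 638 to 21227 reads. The lowest was Ifit2 at 0.04, with 95 reads against 100. The 3 listed genes nearest to Pnpt1 in log2 ratio over these 2 libraries were Ifit2, at an absolute difference of 0.12, Ifih1 at 0.55 and Mx1 at 0.57. Ifih1 had a log2 ratio of 0.71 and Mx1 of 0.73, so among the listed genes only Ifit2 lay close to Pnpt1. The upper end of the Pnpt1 counting interval, 1.49, is below a 1.5-fold rise.

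POLG is the catalytic subunit of the DNA polymerase that replicates mitochondrial DNA, and SSBP1 coats the single strands exposed during replication. Polg (ENSMUSG00000039176, chromosome 7, 79446231 to 79466362, minus strand) had 2156 reads (10.7 FPKM) in shCtrl and 2031 (10.1 FPKM) in shSetdb1. With this many reads the interval of its read ratio, 0.911 (0.857 to 0.968), ended just below 1, and the log2 ratio was -0.08. Ssbp1 (ENSMUSG00000029911, chromosome 6, 40471352 to 40484700, plus strand) had 262 reads (1.67 FPKM) against 246 (1.57 FPKM), a read ratio of 0.908 (0.760 to 1.08). Polg relative to Ssbp1 was 1.003 (0.831 to 1.21). Of the exonic bases of Polg, 8.57% lie over Fanci on the opposite strand, which had 153 reads against 176.

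The order of the levels in the control library, in FPKM per length of gene model, ran from Polrmt and Supv3l1 through Polg, Lrpprc, Tfb1m, Tfam, Tfb2m, Pnpt1 and Ssbp1 to Slirp. Neighbours whose 95% Poisson intervals overlapped, covering counting error only, were Polrmt and Supv3l1, Tfb1m and Tfam, Tfam and Tfb2m, and Pnpt1 and Ssbp1. In the knockdown library Polrmt, Supv3l1 and Polg again had the upper 3 places. There the intervals of Lrpprc (3.37 FPKM) and Tfam (3.30 FPKM) overlapped, as did those of the neighbours Pnpt1 and Tfb1m, Tfb1m and Ssbp1, and Ssbp1 and Tfb2m.

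**Figure D3:**
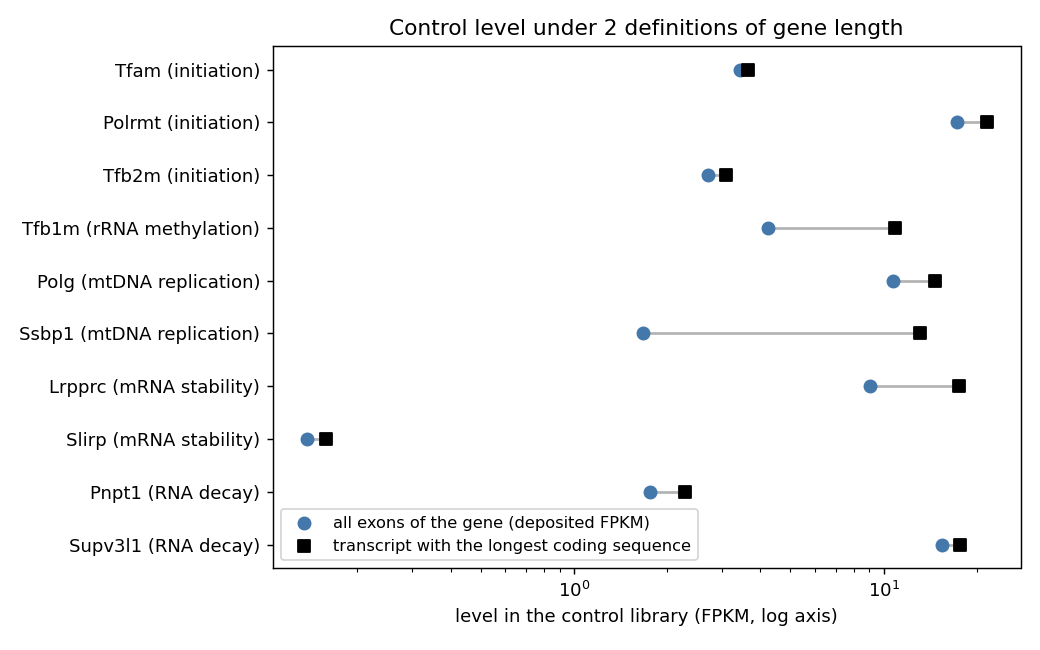
Level of each gene in the control library (FPKM, log axis) with the deposited gene length, which spans all annotated exons (circles), and with the length of the protein-coding transcript that has the longest coding sequence (squares). Ssbp1 moves most, from 1.67 to 13.2 FPKM, and the ratio between libraries is the same under both lengths.

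These levels rest on the gene length used. The deposited lengths span all annotated exons of a gene, 8360 bases for Ssbp1, whereas the Ssbp1 transcript with the longest coding sequence in GENCODE M21 has 1063 bases. If all reads came from that transcript, Ssbp1 would be at 13.2 FPKM in the control library and rank 5 in place of 9. The same change of length took Lrpprc to 17.5 FPKM and Tfb1m to 10.9 FPKM, from 9.05 and 4.23. Polrmt and Supv3l1 kept ranks 1 and 2, at 21.5 and 17.6 FPKM. In the knockdown library, by transcript length, Lrpprc was at rank 5 with 6.53 FPKM, above Tfam with 3.51 FPKM, and Ssbp1 was at rank 4. Tfb1m was at rank 6 in both libraries, with 4.38 FPKM in the knockdown library, above Pnpt1 with 2.72 FPKM, while Tfb2m was at rank 8 and then 9. The choice of transcripts was made after the levels had been seen, and it alters levels between genes but no ratio between libraries.

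Other genes of mitochondrial gene expression were taken from lists, also chosen with earlier results of these data known. Of 26 genes for RNA processing, modification and decay, 24 reached 1 FPKM, and 19 of these were below 0 with a median log2 ratio of -0.47. Past 1.5-fold, 5 of the 24 (20.8%) were lower, beside 14.3% of all genes, and 0 were higher. Elac2, which cuts the trailing end of mitochondrial transfer RNAs, was lowest at -0.89, from 21.2 to 11.0 FPKM. Fastk, of a family of mitochondrial RNA-binding proteins, was highest at 0.33, from 32.0 to 40.5 FPKM. Named after their values were seen, the other 4 past 1.5-fold were Fastkd2, Lactb2, Dhx30 and Fastkd1. Fastkd2, whose product binds the large mitochondrial ribosomal RNA, went from 183 to 49 reads, a read ratio of 0.259 (0.185 to 0.357), whose interval overlaps that of Lrpprc. Fastkd2 and Fastkd5 reached 1 FPKM in the control library only, so the filter fixed the direction of these genes. Mtpap, the mitochondrial poly(A) polymerase, also chosen with its values known, had a read ratio of 0.662 (0.560 to 0.782).

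Genes of genome replication and of the nucleoid, the packaged form of mitochondrial DNA, went both ways. Of 15 such genes 12 reached 1 FPKM, with a median of -0.18. Dna2 did so in the knockdown library only. Past 1.5-fold, 3 of the 12 (25%) were lower, beside 14.3% of all genes, and 1 was higher, beside 16.9% of all genes. Atad3a, a membrane ATPase linked to nucleoids, was lowest at -0.78, from 34.3 to 19.5 FPKM, and Top3a, a topoisomerase that separates replicated genomes, was highest at 0.85, from 3.33 to 6.83 FPKM. Of 6 elongation and termination genes only 3 reached 1 FPKM. These were Tefm, the elongation factor of POLRMT, at -0.64, Mterf3 at -0.60 and Mterf4 at 0.37, all named after their values were seen.

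Nuclear regulators that act on the promoters of such genes went both ways. Of 9, 8 reached 1 FPKM, 4 above and 4 below 0, with a median of -0.02. Among those above 0, Ppargc1b reached 1 FPKM in the knockdown library only. Esrra, a nuclear receptor that activates respiratory genes, was highest at 1.02, from 27.4 to 56.7 FPKM. Pprc1, a coactivator related to PGC-1, was lowest at -0.85, from 21.0 to 11.2 FPKM. Gabpa, which encodes the DNA-binding subunit of the ETS factor whose motif was searched above, had a log2 ratio of -0.50. Of the genes for its partner subunits, Gabpb1 was at 0.33 and Gabpb2 at -0.64. Nrf1 had a log2 ratio of -0.09. All of these genes were named after their values were seen.

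**Figure D4:**
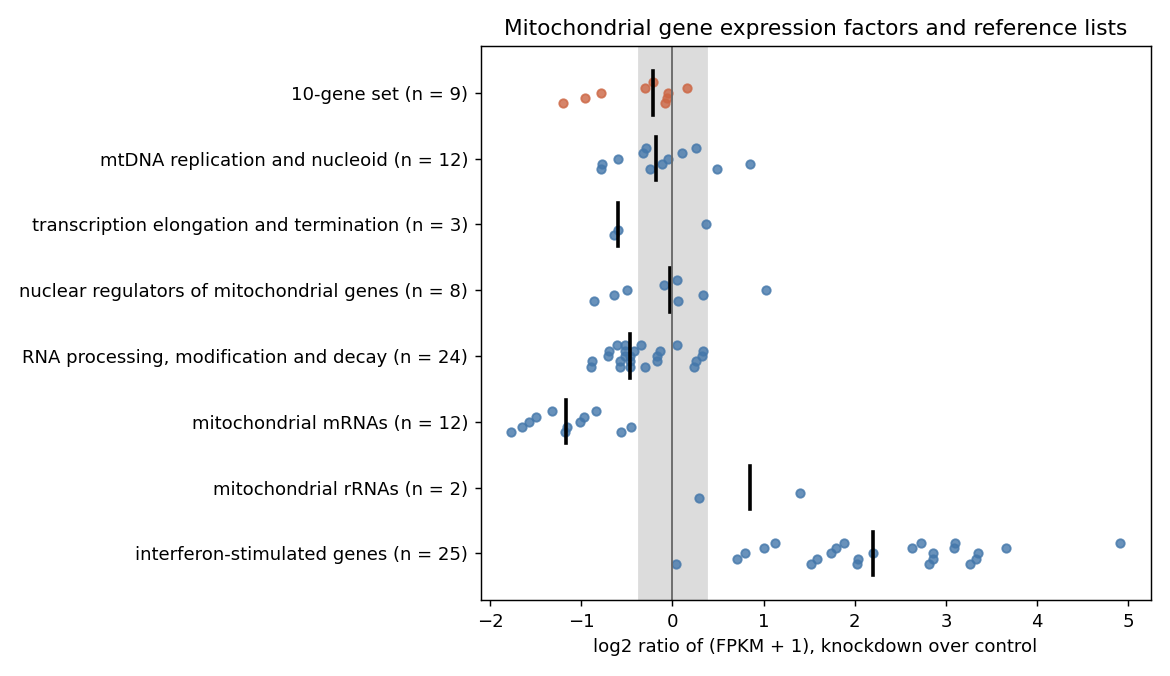
Log2 ratio of (FPKM + 1), knockdown over control, for each gene at 1 FPKM or more, in the set described here (orange) and in the other lists (blue). Black bars are medians and the grey band holds the middle of all 10671 genes, from -0.36 to 0.38. The set described here has 3 genes left of the band, mitochondrial mRNAs lie wholly to its left, and interferon-stimulated genes lie almost wholly to its right.

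The transcripts these factors act on were read from the same libraries. Of 13 mitochondrial messenger RNAs, 12 had reads, and all 12 were lower in the knockdown library, 8 of them at least 2-fold, beside 4.85% of all genes, with a median log2 ratio of -1.17. Together they had 183000 reads in shCtrl and 101937 in shSetdb1. The lowest, mt-Nd4l, had 27 reads against 4, a read ratio of 0.143 (0.0364 to 0.411). It reached 1 FPKM in the control library only, at 4.85 FPKM against 0.719, so the filter fixed the direction of this gene. The highest, mt-Co2, had 401 against 289, a read ratio of 0.697 (0.597 to 0.813). The mitochondrial ribosomal RNAs went the other way. In shCtrl they were at 52.9 FPKM (mt-Rnr1) and 24.6 FPKM (mt-Rnr2), also far below mt-Co1. The small one, mt-Rnr1, the substrate of TFB1M, went from 946 to 2534 reads, and the large one, mt-Rnr2, had 730 against 903. Whether poly(A) RNA had been selected is not given in the sources used here. Whether capture of the ribosomal RNAs differed between the libraries was not tested. For 7 of the 13 messenger RNAs, other loci with the same protein match also had reads, so reads could be divided between the mitochondrial gene and nuclear copies. These copies held 345 reads against 217 for mt-Nd3, 440 against 465 for mt-Co3 and 31 against 28 for mt-Nd4l, about as many as the genes themselves or more. For mt-Co2 they held 291 against 185, and for mt-Atp6 353 against 172, fewer than the genes themselves. In shCtrl mt-Co2, mt-Atp6 and mt-Co3 were at 31.3, 33.6 and 38.4 FPKM, beside 3735 FPKM for mt-Co1. Why they were so far below mt-Co1 was not tested, and the copies did not close the gap in reads. With the copies added, the read ratios of mt-Nd3, mt-Co3, mt-Nd4l, mt-Co2 and mt-Atp6 were 0.576, 0.631, 0.534, 0.6625 and 0.502. All 12 messenger RNAs were then still lower, but 5 in place of 8 at 2-fold, with a median log2 ratio of -0.95, and mt-Nd1 at -1.65 was lowest. Of the 5 with reads and none elsewhere, 4 were at least 2-fold lower. Whether the lower levels of Lrpprc, Tfb2m and Tfb1m play a part in the mitochondrial transcript levels was not tested.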

How the data were processed

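Poly(A) selection and strand setting are not given in the sources used here. The authors deposited FPKM values for 54680 loci with gene lengths. CASAVA, HISAT2, featureCounts 1.5.0-p3 and GRCm38 are named per the submitters' processing notes. Of 54409 IDs found in GENCODE M21, 98.3% had the same start and end. Reads were recovered as FPKM times length over a common step, whole within 0.01 for 100% of values. Both libraries had been divided by 1 depth, 18731117. Log2 ratios of (FPKM + 1) were computed for genes that reached 1 FPKM in either library. No test between conditions was made, since each had 1 library. Read ratios, over library totals, have 95% Clopper-Pearson intervals, which cover counting error only, since PCR copies are not independent molecules. The exact binomial test was checked only on simulated Poisson counts, the kind of counts it assumes. That check says nothing of spread beyond counting error.

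Members and lists were chosen with earlier results of these data known. Named genes were Setdb1, the members, the highest and lowest gene of each list with at least 5 genes at 1 FPKM, and the 3 interferon-stimulated genes nearest to Pnpt1. Other genes, among them cell type markers and those said to be named after their values were seen, fall outside this rule. Prorp was found by an older symbol. The tools were scipy 1.17.1, pandas 2.3.3 and numpy 2.4.6 under Python 3.11.15, with matplotlib 3.10.9. Alternatives were other pseudocounts, scalings and filters, sums over loci with the same protein match, protein-coding genes only, means and reads.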

Additional observations from a re-analysis of the deposited data

How the results depend on the processing

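No paired analysis was possible because there was only 1 library a group, nor could a library be left out. Of 60 alternative log2 ratios of the 10 genes, 56 stayed within counting error and 4, those of Lrpprc, Tfb1m and Tfb2m, moved away from 0 with a smaller pseudocount or with reads; 0 changed sign. Genes of the set past 2-fold numbered 3 with a pseudocount of 0.1 and 3 by reads (chosen after seeing the data), since a smaller pseudocount enlarges ratios of low genes. Past 1.5-fold they numbered 1 with a filter at 5 FPKM, which leaves 4 genes. Over all genes, 2-fold calls numbered 1245, but 2004 with a pseudocount of 0.1 and 2122 by reads. The binomial test, which has no fold threshold, called 7945 genes. Calls at 1.5-fold numbered 3327, and 2196 with a filter at 5 FPKM. The interferon-stimulated median was 2.90 with a pseudocount of 0.1, 2.86 with the filter at 5 FPKM and 2.86 by reads. The elongation and termination median was -0.92 by reads, -0.29 as a mean and -0.20 without a filter, over few genes. With loci of the same protein match added, chosen after seeing the data, the mitochondrial mRNA median was -0.95 and 5 in place of 8 were 2-fold lower. The median of the set ran from -0.38 (mean) to -0.15 (no filter). Where no reason stands beside a change, the cause was not tested. Depth limits Slirp most, with 26 reads in both libraries together.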
